A study of Mus musculus with 6 samples.

Results

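The 44 odorant receptor genes numbered Olfr640 to Olfr691, out of 53686 symbols in the count table, were lower almost throughout in the olfactory epithelium of mice carrying the 5x21-OR1A1 transgene. They lie at the high-numbered end of the class I receptor cluster on mouse chromosome 7. A gene was included if its symbol was Olfr and a number, from Olfr640 to Olfr691, with no pseudogene suffix, whatever its measured level. The rule itself was chosen with earlier results of these data known. Of the 52 numbers in that range, 44 had such a row. The annotation types 41 of them as protein-coding, Olfr663 and Olfr664 as polymorphic pseudogenes and Olfr687 as a transcribed pseudogene.

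The libraries were made from poly-A RNA of whole dissected olfactory epithelium, all from the C57BL/6J strain. There were 3 libraries from mice hemizygous for 5x21-OR1A1 and 3 libraries from wild-type mice without it. OR1A1 is a human class II odorant receptor, and 5x21 transgenes are built with repeats of a short homeodomain enhancer ahead of a receptor promoter. The labels give no age, transgene copy number or founder line, and they do not say which animal each library came from. A p-value here therefore reflects library-to-library spread, which may be technical. Xist and Ddx3y counts place 2 of the 3 transgenic libraries and 1 of the 3 wild-type libraries with females. Reads of the transgene itself were not analysed here.

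Each mature olfactory sensory neuron usually expresses 1 allele of 1 receptor gene, chosen from a repertoire spread over many clusters. Class I receptors, the group mammals share with fish, sit in a single cluster in the mouse and are expressed mostly in the dorsal epithelium. In mice, a long-range enhancer called the J element acts on genes across much of this cluster. In bulk tissue a receptor's level follows both how many neurons express it and how much RNA each of them makes, and fewer neurons cannot be told apart from less RNA per neuron.

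Several neighbours are close copies. Olfr658 and Olfr659, both of family MOR34, share 83.8% of coding bases, and Olfr666 and Olfr668 share 96.9%. Identity here is the identical aligned bases as a share of the longer coding sequence. These are shown because the levels within the first pair moved far apart between genotypes while those within the second, more alike in sequence, moved apart least of the 6 pairs described further on. In the 90-base stretches of GRCm38 coding sequence below, read 5′ to 3′ on the coding strand from the GENCODE vM21 transcripts, capitals mark bases that differ within the pair. The first pair has 17 differing bases of 90 and the second has 3.
Olfr658, chr7:104645275-104645364 (minus strand): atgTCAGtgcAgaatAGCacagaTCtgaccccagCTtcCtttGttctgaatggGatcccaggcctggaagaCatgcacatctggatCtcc
Olfr659, chr7:104670704-104670793 (plus strand): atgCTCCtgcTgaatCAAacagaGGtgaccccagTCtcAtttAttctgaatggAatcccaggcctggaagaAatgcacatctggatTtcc
Olfr666, chr7:104893537-104893626 (minus strand): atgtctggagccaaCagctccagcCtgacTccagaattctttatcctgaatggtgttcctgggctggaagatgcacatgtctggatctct
Olfr668, chr7:104925673-104925762 (minus strand): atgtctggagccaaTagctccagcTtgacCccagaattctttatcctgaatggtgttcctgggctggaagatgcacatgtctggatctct
Olfr679 and Olfr681, at 98.5%, and Olfr671 and Olfr675, at 96.6%, are the other pairs above 95% among members that could be tested. The authors' counting may have lost or shared some of their reads. Over the length of a read, 100 bases, these genes share 10.4, 10.9, 2.94 and 2.44% of their transcript sequence words with other genes, in that order.

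Of the 44 genes, 39 had enough counts to be tested. Of these, 32 were lower and 0 higher in 5x21-OR1A1 libraries at an edgeR adjusted p under 0.05, and 7 did not pass. Over all 19267 genes tested, the same fit called 2.20% lower and 0.519% higher. The median log2 fold change of the 39 genes was -1.89, beside 0.016 over all genes, and 38 of the 39 values were negative. In 36 of the 39 every 5x21-OR1A1 library lay below every wild-type library, a pattern found in 12.5% of all genes tested. Of the 32 called genes, 31 were lower by more than 2-fold and 16 by more than 4-fold. Leaving out each library in turn left between 24 and 32 genes called, where those fits called 0.692 to 2.41% of all genes lower, and 23 were called every time. DESeq2 called 34 lower beside 4.68% of all genes, and limma-voom 30 beside 2.07%. With sex as a covariate 27 were lower beside 1.23% of all genes, and at an adjusted p under 0.01, 24 beside 0.737%.

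**Figure D1:**
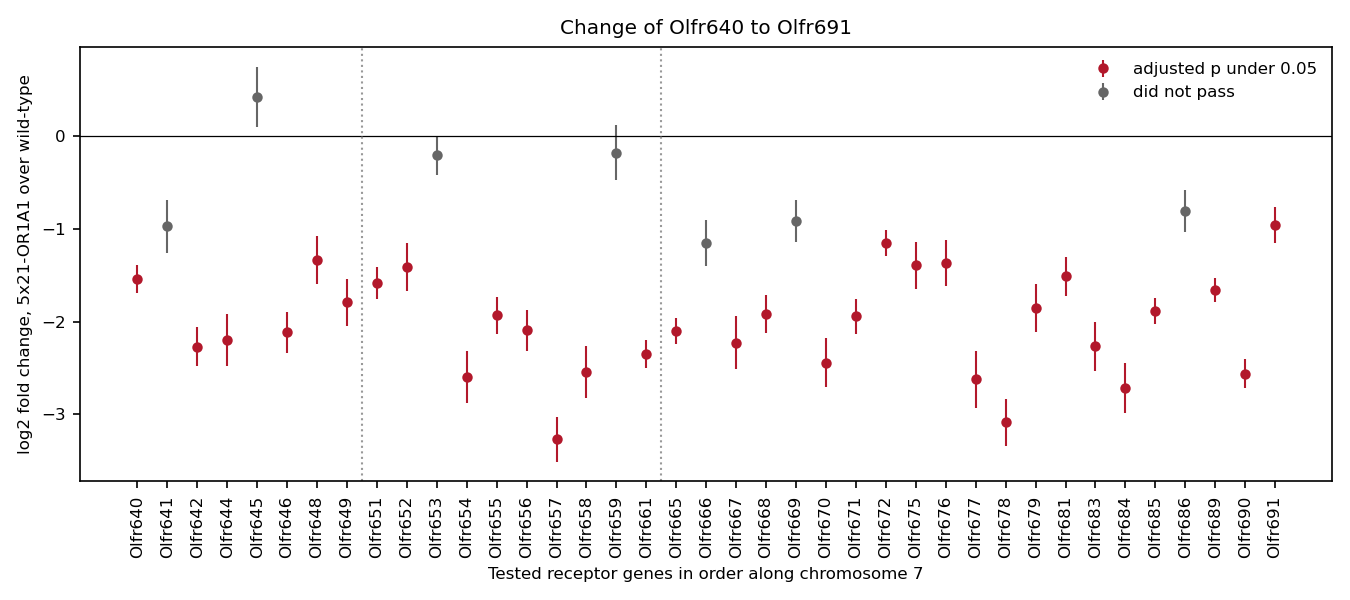
Log2 fold change of each tested receptor gene, 5x21-OR1A1 over wild-type, in order along chromosome 7; bars are 1 standard error, and dotted lines mark the gaps of 354 and 144 kb between blocks of genes. All but Olfr645 lie below 0, and genes that did not pass sit beside genes that fell strongly.

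The lowering was not limited to weak or strong receptors. Across the 39 genes the transgenic level ran from 0.176 to 8.28 CPM per kb of exon with a median of 0.775, and the wild-type level from 0.347 to 18.4 CPM per kb with a median of 2.86. CPM is the gene's count scaled to the TMM-adjusted library total. Spearman's rho between log2 fold change and mean CPM per kb was 0.05, and between log2 fold change and position along the chromosome it was -0.10, as descriptions over 39 genes that share their libraries. The order of the genes by CPM per kb was alike in both genotypes, with a rho of 0.849 over the same 39 genes.

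Olfr640 (chr7:104018686-104025573, minus strand, family MOR13) was the most abundant of these genes in wild-type tissue. It had 11.4, 11.0 and 10.9 CPM in the 5x21-OR1A1 libraries, against 31.8, 39.0 and 25.6 CPM in the wild-type libraries. The groups were far apart, and its log2 fold change was -1.54 (SE 0.15; edgeR adjusted p = 0.00341). Olfr672 (chr7:104995760-105002029, minus strand, MOR32), the highest per kb of exon in both genotypes, had 13.8, 12.6 and 10.6 CPM in 5x21-OR1A1 tissue, against 29.3, 30.1 and 22.8 CPM in wild-type tissue. It fell less than most, with a log2 fold change of -1.15 (SE 0.14; edgeR adjusted p = 0.00664), and remained the highest per kb in the transgenic libraries.

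Of the other abundant receptors, Olfr665, Olfr685 and Olfr644 fell further than Olfr640. Olfr665 (MOR34) averaged 4.82 ± 0.263 CPM in 5x21-OR1A1 tissue and 20.7 ± 3.03 CPM in wild-type tissue (SD, n = 3 each), a log2 fold change of -2.10. Olfr685 (MOR37) averaged 5.46 ± 0.339 CPM in 5x21-OR1A1 tissue and 20.2 ± 3.38 CPM in wild-type tissue, and Olfr644 (MOR13) 4.44 ± 0.888 CPM in 5x21-OR1A1 tissue and 20.3 ± 7.75 CPM in wild-type tissue, with log2 fold changes of -1.89 and -2.20. All 3 genes were called in every leave-one-out fit. Olfr652, at 6.38 ± 0.710 CPM in 5x21-OR1A1 tissue and 16.9 ± 6.47 CPM in wild-type tissue, passed with a log2 fold change of -1.41 (edgeR adjusted p = 0.0329) but was called in 2 of 6 leave-one-out fits.

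Olfr690 (chr7:105328225-105334104, minus strand, MOR31), a mouse receptor known to respond to isovaleric acid, had 3.19, 2.74 and 3.31 CPM in the 5x21-OR1A1 libraries, against 15.1, 20.4 and 19.1 CPM in the wild-type libraries. Its wild-type mean was 5.91 times the transgenic one (log2 fold change -2.56, SE 0.16; edgeR adjusted p = 0.000913). Its neighbour Olfr691 (chr7:105335509-105342270, minus strand), of the same family, had 202, 148 and 119 counts in 5x21-OR1A1 libraries, against 230, 416 and 299 in wild-type libraries. It averaged 4.98 ± 0.566 CPM in 5x21-OR1A1 tissue and 9.68 ± 2.13 CPM in wild-type tissue (SD, n = 3 each). The Olfr691 groups did not overlap, but its fall of 0.96 on the log2 scale (SE 0.19; edgeR adjusted p = 0.0429) was the smallest of the 32 called and was kept in 1 of 6 leave-one-out fits.

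The strongest falls were those of Olfr657 and Olfr678. Olfr657 (chr7:104624794-104637481, plus strand, MOR40) had 21, 22 and 11 counts in the 5x21-OR1A1 libraries, or 0.572, 0.754 and 0.405 CPM. In the wild-type libraries it had 191, 209 and 146 counts, or 6.06, 5.73 and 5.05 CPM. No transgenic library came near the wild-type range, and the log2 fold change was -3.27 (SE 0.24; edgeR adjusted p = 0.00136). Olfr678 (chr7:105064475-105071639, plus strand, MOR32) had 0.436, 0.411 and 0.405 CPM in 5x21-OR1A1 tissue, against 3.49, 4.39 and 2.83 CPM in wild-type tissue, a log2 fold change of -3.08 (SE 0.25; edgeR adjusted p = 0.00167).

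Olfr684 (MOR40), Olfr677 (MOR32) and Olfr654 (MOR38) followed with log2 fold changes of -2.72, -2.62 and -2.60. Olfr684 averaged 0.722 ± 0.0834 CPM in 5x21-OR1A1 tissue and 4.79 ± 1.39 CPM in wild-type tissue (SD, n = 3 each). Olfr677 averaged 1.82 ± 0.718 CPM in 5x21-OR1A1 tissue and 11.1 ± 2.68 CPM in wild-type tissue, and Olfr654 averaged 1.20 ± 0.336 CPM in 5x21-OR1A1 tissue and 7.21 ± 2.02 CPM in wild-type tissue. All 3 groups of transgenic values lay wholly below the wild-type values.

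**Figure D2:**
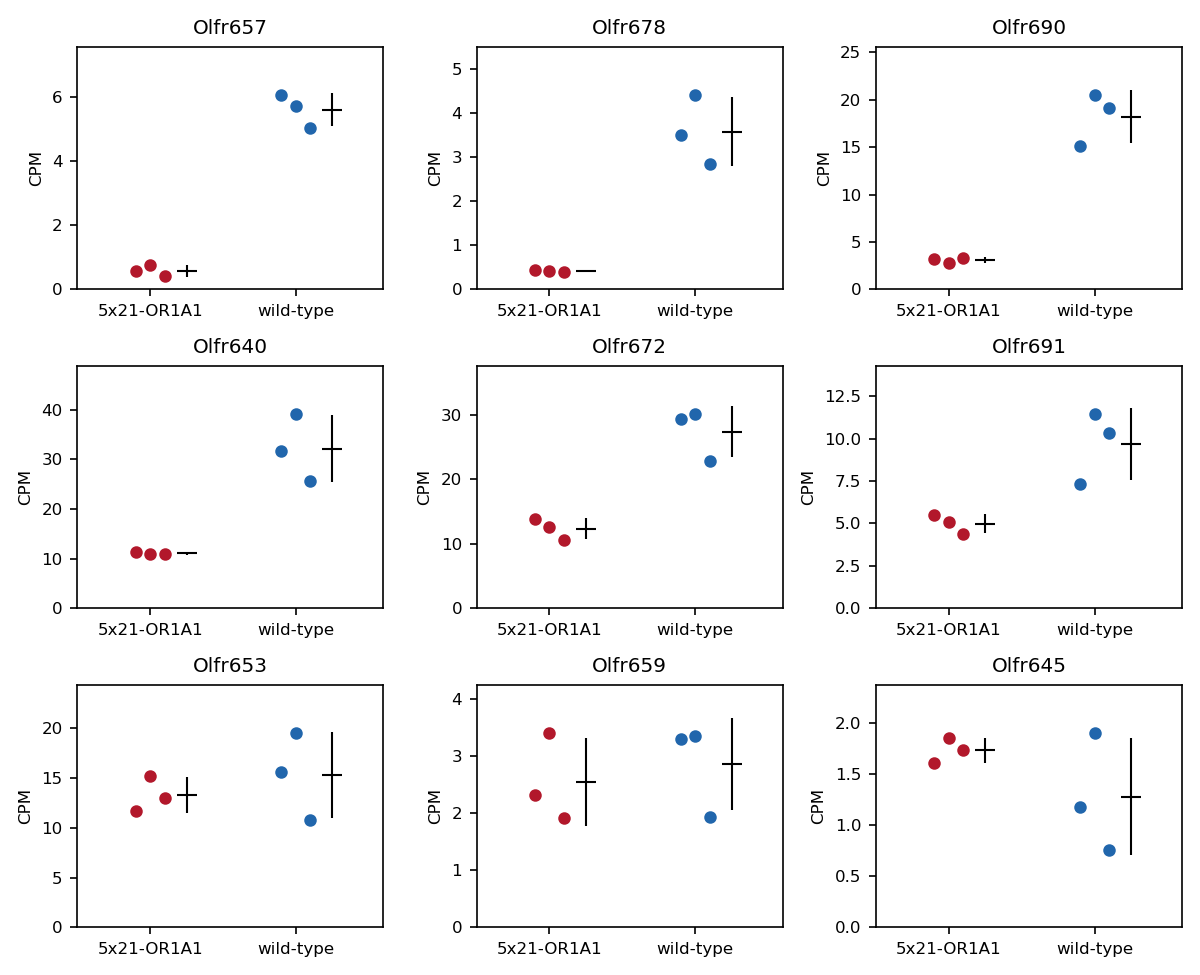
CPM of 9 receptor genes in each library, with 5x21-OR1A1 at the left of each panel and wild-type at the right; crosses give the mean and SD of 3 libraries. The upper 6 genes show separate groups, while the groups of Olfr653, Olfr659 and Olfr645 overlap.

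For 3 receptors the genotypes overlapped. Olfr653 (chr7:104577314-104584117, plus strand, MOR33) had 11.7, 15.2 and 13.0 CPM in the 5x21-OR1A1 libraries, against 15.6, 19.5 and 10.8 CPM in the wild-type libraries. It ranked first in CPM among the 44 genes in transgenic tissue and ninth in wild-type tissue, with a log2 fold change of -0.20 (SE 0.21; edgeR adjusted p = 0.679). Its share of the summed counts of all 44 genes was 8.23, 10.5 and 9.99% in 5x21-OR1A1 libraries, against 3.79, 3.63 and 3.05% in wild-type libraries.

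Olfr659 (chr7:104666753-104674948, plus strand) had 2.31, 3.39 and 1.91 CPM in 5x21-OR1A1 tissue, against 3.30, 3.35 and 1.94 CPM in wild-type tissue. Its log2 fold change was -0.17 (SE 0.29; edgeR adjusted p = 0.814). Olfr645 (chr7:104081789-104085465, minus strand, MOR13) had 1.61, 1.85 and 1.73 CPM in 5x21-OR1A1 tissue, against 1.17, 1.89 and 0.760 CPM in wild-type tissue. It had the one positive log2 fold change, 0.42 (SE 0.33; edgeR adjusted p = 0.569).

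The other 4 genes that did not pass had groups that did not overlap. Olfr686 (MOR35) averaged 1.58 ± 0.204 CPM in 5x21-OR1A1 tissue and 2.76 ± 0.531 CPM in wild-type tissue, with a log2 fold change of -0.81 (edgeR adjusted p = 0.121). Olfr669 (MOR34) averaged 5.76 ± 0.523 CPM in 5x21-OR1A1 tissue and 10.8 ± 3.35 CPM in wild-type tissue, with a log2 fold change of -0.91 (edgeR adjusted p = 0.0905). Olfr641 (MOR13) and Olfr666 (MOR34) had log2 fold changes of -0.97 and -1.15 (edgeR adjusted p = 0.142 and 0.0572).

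Of the families named by the RefSeq receptor synonyms (MOR numbers, which group receptors by sequence), some were called lower in full and others in part. Over all 39 tested genes, 82.1% were called lower. All 7 tested MOR32 genes, all 6 tested MOR40 genes, all 5 tested MOR31 genes and both MOR38 genes were called lower, with median log2 fold changes of -1.94, -2.31, -1.59 and -2.27. Olfr652 and Olfr681 were also called lower but are in no family here, as their synonyms, MOR318 and MOR4014, lack the usual form. Olfr681 is 98.5% identical to the MOR40 gene Olfr679, so these families may be incomplete. In MOR13 3 of 5 tested genes were called, in MOR34 4 of 7 and in MOR33 1 of 2. The genes that did not pass were thus spread over MOR13, MOR33, MOR34 and MOR35, and most had a lowered relative of the same family.

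Within 6 such pairs, made by matching each gene that did not pass with its most identical lowered relative, the ratio of counts was compared by library. Olfr659 had 2.36, 3.81 and 1.93 counts per Olfr658 count in the 5x21-OR1A1 libraries, against 0.559, 0.460 and 0.538 in the wild-type libraries. Olfr658, at 0.955 ± 0.0556 CPM in 5x21-OR1A1 tissue and 5.59 ± 1.86 CPM in wild-type tissue (SD, n = 3 each), was therefore the less abundant of the pair in every transgenic library and the more abundant in every wild-type one. The difference in log2 ratio was 2.32 (SE 0.30). Because these pairs were picked for their unlike results, the ratios are a description and carry no test.

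For Olfr645 over Olfr644 the difference in log2 ratio was 2.68 (SE 0.25), the largest of the 6, at 68.5% coding identity. For Olfr653 over Olfr646 it was 1.95 (SE 0.23) at 63.9% identity. The near-identical Olfr666 and Olfr668 differed least: Olfr666 had 1.01, 1.31 and 1.39 counts per Olfr668 count in 5x21-OR1A1 libraries, against 0.646, 0.762 and 0.743 in wild-type libraries, a log2 difference of 0.78 (SE 0.16). In the exonic sequence of Olfr666, 8.22% of 100-base words are shared with Olfr668, so most of its sequence differs from Olfr668 over the length of a read.

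The 44 genes fall into 3 blocks separated by gaps of 354 kb, which holds Trim genes, and 144 kb. From Olfr640 to Olfr649, 6 of 8 tested genes were lower with a median log2 fold change of -1.67. From Olfr651 to Olfr664, 8 of 10 were lower with a median of -2.01, and from Olfr665 to Olfr691, 18 of 21 with a median of -1.89. No test of a difference between blocks was made. The least and the most lowered genes lay close together, as with the neighbours Olfr657, Olfr658 and Olfr659.

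The interval also holds 42 rows that the table does not name as receptors, and 11 of them were tested. For 10 of these the log2 fold changes ran from -0.21 to 1.49 with a median of 0.079, and none passed (lowest edgeR adjusted p = 0.334). They included 6 Trim genes, which encode tripartite-motif proteins, at -0.21 to 0.27. The highest value was that of Olfm5, an olfactomedin gene, whose groups overlapped. The remaining row, and the 1 that passed, was 4930516K23Rik (chr7:104053600-104061445, minus strand), with 67, 42 and 39 counts in the 5x21-OR1A1 libraries, against 136, 267 and 146 in the wild-type libraries. Its log2 fold change was -1.82 (SE 0.24; edgeR adjusted p = 0.00929).

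The row 4930516K23Rik bears on the receptor Olfr643, which had 0 counts in all 6 libraries. RefSeq on GRCm38.p6 places the Olfr643 coding sequence (MOR13-2) inside an exon of the GENCODE gene 4930516K23Rik, whereas the GENCODE model named Olfr643 spans other genes of the cluster. The 4930516K23Rik coding sequence of 942 bases is 90.2% identical to that of Olfr644, its closest relative among the 44 genes. To show where these genes can best be told apart, the 90-base stretch in which they differ most is given here. It holds 18 differing bases, in capitals, read 5′ to 3′ on the coding strand of GRCm38.
4930516K23Rik, chr7:104058758-104058847 (minus strand): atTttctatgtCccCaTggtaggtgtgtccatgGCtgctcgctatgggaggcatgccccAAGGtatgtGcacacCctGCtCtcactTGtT
Olfr644, chr7:104068187-104068276 (minus strand): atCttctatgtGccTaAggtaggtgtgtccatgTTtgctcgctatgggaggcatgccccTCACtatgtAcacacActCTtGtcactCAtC
Whether the authors' annotation counted Olfr643 reads under that row is not given in the sources used here, and the row was kept out of the 44 genes.

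The other 4 untested genes had few or no counts. Olfr688 had 0 counts in all libraries, with 73.6% of its 100-base words shared with Olfr687. Olfr663 and Olfr687 had means under 0.1 CPM in both genotypes. Olfr664 had 19, 18 and 5 counts in the 5x21-OR1A1 libraries, against 9, 3 and 1 in the wild-type libraries, and the groups overlapped.

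Summed over the 44 genes, counts made up 0.0147, 0.0142 and 0.0128% of the 5x21-OR1A1 libraries, against 0.0419, 0.0546 and 0.0339% of the wild-type libraries. The log2 ratio of the shares was -1.62 (SE 0.21; two-sided exact permutation test, p = 0.1, the smallest that 3 against 3 libraries can give). Wild-type library 2 was the highest of all 6 for 34 of the 39 tested genes, and leaving out each library moved the log2 ratio between -1.78 and -1.44. The spread was smaller among transgenic libraries, with a median coefficient of variation of 12.4% in 5x21-OR1A1 libraries and 25.7% in wild-type libraries. These medians describe 39 genes that share their libraries, so a shift of 1 library moves many genes at once.

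**Figure D3:**
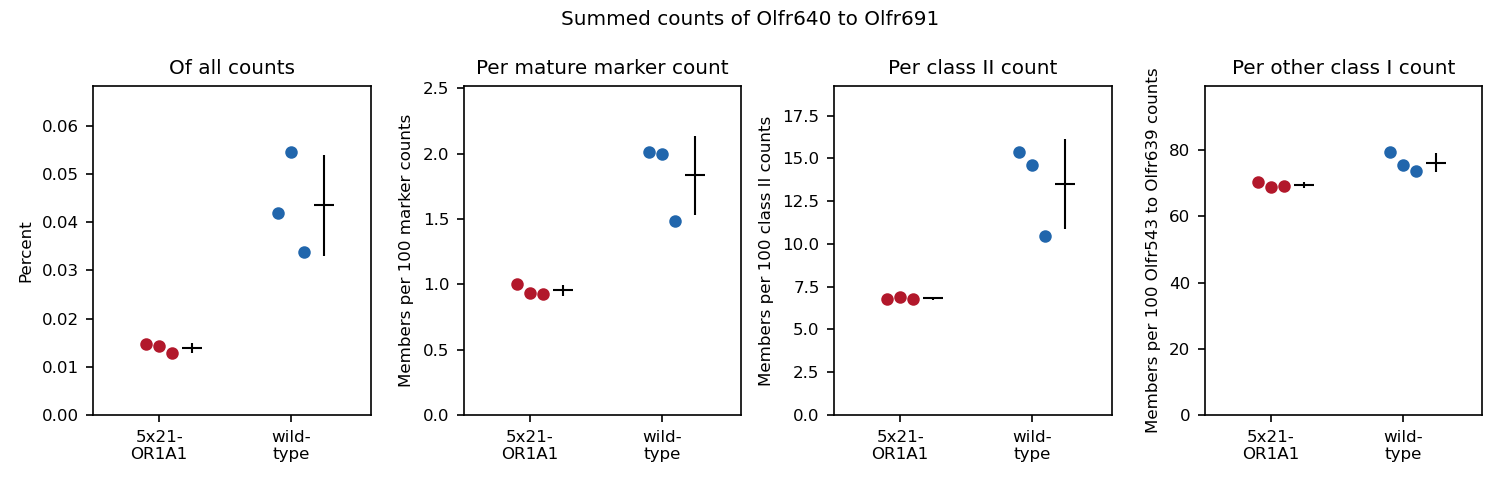
Summed counts of Olfr640 to Olfr691 in each library as a percentage of all counts and per 100 counts of the mature neuron markers, of class II receptors and of Olfr543 to Olfr639; crosses give the mean and SD of 3 libraries. The groups are separate in all 4 panels, by a wide gap against all counts and by a narrow one against the other class I genes.

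Markers of mature neurons moved with this result. All 16 were tested, 6 were called lower and 0 higher, and their median log2 fold change was -0.66. Omp, the classic marker of mature olfactory neurons, averaged 6781 ± 190.3 CPM in 5x21-OR1A1 tissue and 11508 ± 1580 CPM in wild-type tissue (SD, n = 3 each), with Gng13, Gfy and Ric8b also called lower. The 16 genes together made up 1.39 to 1.52% of counts in 5x21-OR1A1 libraries and 2.08 to 2.73% in wild-type libraries. Per 100 counts of these markers, the 44 receptors had 0.954 ± 0.0419 counts in 5x21-OR1A1 libraries and 1.83 ± 0.301 in wild-type libraries (SD, n = 3 each), and the groups did not overlap. That log2 ratio was -0.93 (SE 0.15; exact permutation test, p = 0.1).

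Some markers of younger cells were higher in the same libraries. Of 12 immature neuron markers, 4 were higher and 0 lower (Gap43, Dpysl3, Stmn1 and Stmn2), at 1958 to 2116 CPM summed in 5x21-OR1A1 tissue and 1418 to 1692 CPM in wild-type tissue. Of 12 progenitor markers, 5 were higher and 0 lower, Insm1 and Sox11 among them, at 410 to 470 CPM summed in 5x21-OR1A1 tissue and 285 to 298 CPM in wild-type tissue. Of 8 immune cell genes Jchain was higher, with none lower. None of the tested markers of basal, sustentacular, gland, microvillous, ciliated, ensheathing or red blood cells was called by edgeR, and Muc2 was at 0 in all libraries. The part of these shifts in the receptor result was not tested.

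Among 25 tested genes that act on receptor choice or class I expression, 1 passed, downward. That is 4%, near the 2.20% called lower over all genes tested. The median log2 fold change of the 25 was 0.076. The called gene was Ebf4, a transcription factor of olfactory neurons, at 90.3 ± 9.89 CPM in 5x21-OR1A1 tissue and 151 ± 16.9 CPM in wild-type tissue. Bcl11b, which represses class I choice in mice, had a log2 fold change of 0.45 that did not pass (edgeR adjusted p = 0.0585). Nqo1, an enzyme that marks the dorsal zone where class I neurons lie, was the 1 of 7 dorsal genes called, in a list whose median log2 fold change was 0.014. It stood at 243 ± 6.95 CPM in 5x21-OR1A1 tissue and 552 ± 123.3 CPM in wild-type tissue, while none of 6 ventral genes was called.

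Against class II receptors the 44 genes were also lower. They had 6.76, 6.90 and 6.77 counts per 100 class II counts in 5x21-OR1A1 libraries, against 15.4, 14.6 and 10.5 in wild-type libraries, a log2 ratio of -0.97 (SE 0.17; exact permutation test, p = 0.1). Their own median log2 fold change was -0.63, over 769 class II genes tested.

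The rest of class I was also lower, by nearly as much in the sums. Per 100 counts of Olfr543 to Olfr639, the remaining numbered class I genes, the 44 genes had 70.5, 68.9 and 69.2 counts in 5x21-OR1A1 libraries, against 79.5, 75.5 and 73.9 in wild-type libraries, a log2 ratio of -0.13 (SE 0.033; exact permutation test, p = 0.1). Against Olfr543 to Olfr590 alone it was -0.28 (SE 0.051; exact p = 0.1), and against Olfr591 to Olfr639 it was -0.0086 (SE 0.033; exact p = 0.9). Among Olfr543 to Olfr639, 43 of 62 tested genes were lower, with a median log2 fold change of -1.70.

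Single genes departed from the rest of class I in both directions. With library totals replaced by the summed counts of Olfr543 to Olfr639, a comparison added after seeing the data, 16 of the 39 genes were below the rest of class I, 5 were above and 18 did not pass. On that scale edgeR called 0.358% of all genes lower and 94.9% higher, since most genes did not fall as class I did. With so many genes passing, the adjustment hardly raises a p-value near the threshold, so calls there are close to unadjusted ones. Olfr657, Olfr678 and Olfr684 were lowest, at log2 values of -1.81, -1.58 and -1.20. Olfr645, Olfr653 and Olfr659 lay above the rest by 1.98, 1.32 and 1.32 (edgeR adjusted p = 8.87e-05, 6.16e-05 and 0.00118), each in all 6 leave-one-out fits. Olfr669 and Olfr691, at 0.61 and 0.53, passed in 2 and 1 of those fits. Of the 16 below, Olfr667 passed in 2 of them, Olfr646, Olfr656 and Olfr665 in 3, Olfr644 in 4 and the others in all 6. Among the 62 genes of Olfr543 to Olfr639 tested on the same scale, 18 were below and 13 above.

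**Figure D4:**
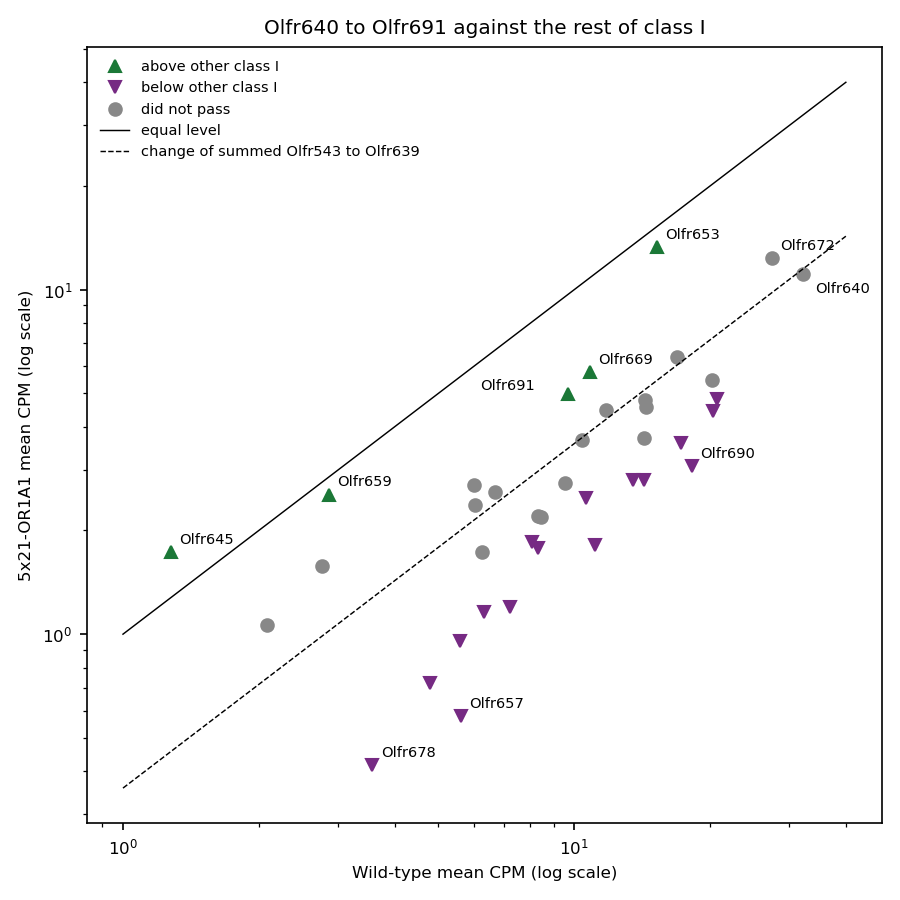
Mean CPM of each tested receptor gene, 5x21-OR1A1 on the vertical and wild-type on the horizontal log axis; marker shapes give the call against the summed counts of Olfr543 to Olfr639. Genes scatter around the dashed line, which is the change of that sum, while Olfr645, Olfr653 and Olfr659 lie near the line of equal level.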

How the data were processed

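The authors deposited unnormalized read counts for each gene symbol. The submitters' processing notes list TopHat2 2.1.1, HTSeq 0.9.1 and the build GRCm38.p5. Per the labels' protocols, libraries were nonstranded, poly-A selected and sequenced from one end over 100 bp, so reads of overlapping genes cannot be told apart. Which annotation the counting used, and how it treated multi-mapping reads, is not given in the sources consulted. Library totals were 27506217 to 35423577 counts in 5x21-OR1A1 and 30177731 to 35804712 in wild-type.

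The genotypes were compared with edgeR 4.0.16 under R 4.3.3 (TMM factors, filter at a minimum count of 10 and total of 15, quasi-likelihood test on genotype, Benjamini-Hochberg adjustment over the 19267 genes kept). Standard errors are the log2 fold change over the square root of F. The scripts were tested on simulated data. Shares were compared by exact permutation. Coordinates, exon lengths and sequences came from GENCODE vM21 on GRCm38 and family names from RefSeq. Of the 37 receptors with a RefSeq promoter window, 2 had one placed within 100 bases of the GENCODE start, and none is shown. Alternatives used DESeq2 1.42.0, limma 3.58.1 and other scalings. Values by library were given for the 8 most abundant genes, the 6 most and 6 least negative, Olfr690 and Olfr691, and for genes of other lists that passed, up to 4 a list; a gene that this rule takes is not reported here. The genes, lists and rules were chosen with earlier results of these data known.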

Additional observations from a re-analysis of the deposited data

How the results depend on the processing

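The count of lowered receptors stayed between 24 and 34 under every alternative, with 27 when sex was a covariate, 24 at an adjusted p under 0.01, 30 with limma-voom and 34 with DESeq2. Scaled to mature neuron markers, which puts the median of all genes at 0.70 in place of 0.016, 30 were lower and 1 was higher (Olfr645, log2 fold change 1.14), where 1.33% of all genes were lower and 75.6% higher. On that scale 7 of the 11 interval genes not named as receptors were called, beside 76.9% of all genes. With so many calls the adjustment did little near the threshold there too. The log2 fold changes of Olfr653 and Olfr659 turned to 0.49 and 0.50 on the same scale. With each library left out, Olfr653 ran from -0.40 to 0.015, its highest value without wild-type library 2. With each library left out, 0 to 1 interval genes were called. In such fits on the class I scale, 11 to 18 receptors lay below the rest of class I and 3 to 6 above it. With all libraries, that scale called 0.358% of all genes lower and 94.9% higher. The receptors above the rest include Olfr664, which has few counts and was untested in the main fit, in 4 of the fits with a library left out. The log2 share against class II ran from -1.14 to -0.86, against mature markers from -1.07 to -0.85 and against other class I from -0.16 to -0.10. Replicate numbers did not pair the samples (correlations of same-numbered libraries -0.33, 0.07 and -0.17). With the replicate number as a block, 30 receptors were lower, beside 1.68% of all genes, and 29 of them were also called in the main fit. The share tests with that block gave an exact p of 0.25, the smallest for 3 pairs. Of 544 alternative values for 34 named genes, 433 kept direction and side of the threshold, 104 no longer passed, 4 newly passed and 3 changed sign. With 3 libraries a group, exact tests cannot go below 0.1, and genes with few counts, such as Olfr663 and Olfr688, were not tested.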
